A study of Rattus norvegicus with 23 samples.

Results

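The glial differentiation markers described here are 5 rat genes, taken by identifier from a list drawn up for this work out of the 32883 genes of the count table. They are Gfap (ENSRNOG00000002919), S100b (ENSRNOG00000001295), Aqp4 (ENSRNOG00000016043), Apoe (ENSRNOG00000018454) and Mbp (ENSRNOG00000016516). The list supplied these gene names. The table holds identifiers alone, and 0 of its 32883 identifiers matched the reference table of rat genes used here, so the pairing of name and identifier was not checked and every name below rests on it. Of the 5 genes, 4 reached 10 counts in at least 2 libraries and were tested, and Aqp4 did not.

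The cells, neural stem cells from the hippocampus of adult female rats with the genotype label WT, were kept on a stiff or a soft substrate. Every group, 0 h included, carries the same treatment label, a mixed differentiation medium of DMEM-F12 with N2, 1 uM retinoic acid and 1% FBS. RNA was sampled at 0, 12, 24 and 36 h from 3 libraries per substrate and time, with 2 for soft at 12 h, which makes 23 libraries in 8 groups. The titles number the rounds 1 to 3 without saying whether a round is a culture or an animal, so the p-values measure the spread between these libraries, which may be technical. The sources used here give neither the stiffness of the substrates in units of pressure, nor the handling of the cells up to 0 h, nor the number of animals. Library totals lay between 2462360 and 6811157 counts.

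Glia arise from neural stem cells along an astrocyte and an oligodendrocyte branch. Gfap encodes the intermediate filament protein of astrocytes, which radial stem cells of the adult hippocampus also carry. S100b encodes a calcium-binding protein of astrocytes that is also made by cells of the oligodendrocyte lineage. Aqp4 encodes the water channel of astrocyte end feet, Apoe the lipid-carrying protein that astrocytes secrete, and Mbp a major structural protein of the myelin made by oligodendrocytes. The Mbp gene also has an upstream start that gives the golli transcripts, and tags read near the 3' end do not tell transcripts with a common 3' end apart.

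Gfap had the largest change of the 4 tested genes and S100b the most even one, and each has a single start in the RefSeq promoter table (assembly GRCr8), so the 250 bases upstream of both starts are shown. They were matched by symbol. Capitals mark matches to 3 motifs searched on both strands: the TATA box TATAAA, the STAT motif TTCNNNGAA, and AGGTCA, a nuclear receptor half-site.
Gfap, chr10:88361662-88361911, minus strand: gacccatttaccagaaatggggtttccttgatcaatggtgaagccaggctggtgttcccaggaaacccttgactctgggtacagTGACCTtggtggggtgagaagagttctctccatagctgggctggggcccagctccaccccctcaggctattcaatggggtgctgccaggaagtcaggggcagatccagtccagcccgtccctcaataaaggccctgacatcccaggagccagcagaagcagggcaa
S100b, chr20:12381082-12381331, minus strand: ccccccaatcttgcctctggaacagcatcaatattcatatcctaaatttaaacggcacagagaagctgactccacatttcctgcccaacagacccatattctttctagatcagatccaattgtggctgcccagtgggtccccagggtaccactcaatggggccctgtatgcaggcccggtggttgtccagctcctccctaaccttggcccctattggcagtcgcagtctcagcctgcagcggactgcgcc

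The Gfap window held 1 match, to AGGTCA on the opposite strand at bases 85 to 90, counted from the 5' end of the window. The S100b window held none. Over 33469 such windows of the same length, 14.06% held AGGTCA, 12.93% held TATAAA and 7.67% held TTCNNNGAA. A match is a string of letters and says nothing of binding. Mbp has 2 starts in the table and Apoe 3, and the counts do not say which was used, so their windows are not shown.

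Over the 36 h, Gfap, S100b and Mbp rose on both substrates and Apoe did not pass the test. Averaged over stiff and soft, the increase from 0 h to 36 h was 157-fold for Gfap, 4.79-fold for S100b and 4.79-fold for Mbp. These 3 of 4 tested markers were called higher, at a Benjamini-Hochberg adjusted p under 0.05 in edgeR's quasi-likelihood test, where 34.2% of all 11857 tested genes were called higher and 67.2% were called in either direction. The median log2 fold change was 2.26 over the 4 markers and 0.02 over all tested genes. The markers were chosen with earlier results of these data known. Gfap reached 10 counts only in libraries after 0 h, and Aqp4 in none, so a gene near 0 throughout has no value here. Shares and medians over the markers therefore describe these 4 genes and are no test of the list. In bulk RNA, more cells of a type and more transcript per cell cannot be told apart.

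Gfap was close to the detection limit at first and rose steeply at the end. On stiff, rounds 1 to 3 gave 3, 1 and 0 counts for 0 h, 1, 0 and 1 counts for 12 h, 9, 14 and 13 counts for 24 h, and 117, 84 and 45 counts for 36 h. On soft, the same rounds gave 0, 1 and 0 counts for 0 h, 2 and 11 counts for 12 h (rounds 1 and 3), 10, 15 and 15 counts for 24 h, and 169, 145 and 34 counts for 36 h. On both substrates every 24 h library was above every 12 h library in CPM, the counts per 1000000 counts of a library's TMM-scaled total, and every 36 h library was above every 24 h library. The share of all tested genes with libraries apart in this way was not counted, here or for S100b and Mbp below.

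In CPM, Gfap at 36 h stood at 29.3, 16 and 12.7 on stiff and at 49.9, 22.4 and 12.8 on soft. At 24 h it had been 1.98 ± 0.632 CPM on stiff and 2.50 ± 0.76 CPM on soft (SD, n = 3 each). The last step, from 24 h to 36 h, was 10.6-fold over both substrates (log2 fold change 3.41, SE 0.302, edgeR quasi-likelihood adjusted p = 4.82e-10), and 1 of the 11857 tested genes had a larger absolute log2 fold change in that step. Without the round 1 libraries the step was smaller, with a log2 fold change of 2.70. The step from 12 h to 24 h was 4.36-fold (log2 fold change 2.13, SE 0.62, edgeR adjusted p = 0.00521), and its log2 fold change was 2.87 without soft 12 h replicate 3. From 0 h to 12 h the change did not pass the test, at a log2 fold change of 1.76 (SE 1.162, edgeR adjusted p = 0.243).

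The size of the whole Gfap rise had wide intervals, with few counts at 0 h. Summed over 3 libraries each, Gfap had 246 counts at 36 h and 4 at 0 h on stiff, and 348 at 36 h and 1 at 0 h on soft. The ratio of summed levels was 85.6 on stiff, with a 95% exact interval of 33.0 to 317, and 428 on soft, with an interval of 76.3 to 16952. These intervals cover counting error only. The fitted log2 fold changes were 6.28 (SE 0.614) on stiff and 8.31 (SE 0.724) on soft, with edgeR adjusted p of 1.69e-10 and 1.45e-11. Among all tested genes, 29.2% were called higher from 0 h to 36 h on stiff and 28% on soft, or 57.5% and 54.2% in either direction. Single libraries moved these values: the log2 fold change on stiff was 7.45 without stiff 0 h replicate 1 and 5.82 without stiff 0 h replicate 3. On soft it was 7.66 without soft 36 h replicate 1 and 10.14 without soft 0 h replicate 2. Without round 1 the log2 fold changes were 7.03 on stiff and 7.21 on soft. The values 7.45 and 7.03 rest on stiff 0 h libraries with 1 and 0 Gfap counts. The mean of the substrates was 7.29, with 6.97 without soft 36 h replicate 1 and 8.21 without soft 0 h replicate 2. With that library left out soft 0 h holds no Gfap count, so 8.21 and 10.14 are fits against 0 that depend on the prior count and are no bounds.

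S100b rose in every step and varied little between libraries. On stiff, the libraries of 0 h (rounds 1 to 3) had 246, 217 and 239 CPM, those of 12 h 364, 398 and 452 CPM, those of 24 h 860, 799 and 846 CPM, and those of 36 h 1142, 1103 and 1243 CPM. On soft, the libraries of 0 h had 222, 252 and 241 CPM, those of 12 h 445 and 476 CPM (rounds 1 and 3), those of 24 h 818, 825 and 910 CPM, and those of 36 h 1147, 1120 and 1036 CPM. On both substrates the libraries of each time lay above all those of the time before it, with no overlap.

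The S100b steps had log2 fold changes of 0.87 (SE 0.062) from 0 h to 12 h, 0.97 (SE 0.062) from 12 h to 24 h and 0.42 (SE 0.057) from 24 h to 36 h. Their edgeR adjusted p were 2.39e-13, 3.37e-14 and 1.15e-06. Calls were frequent among all genes: 3 of 4 markers and 38.5% of tested genes were called in the first step, 3 of 4 and 46.3% in the next, and 3 of 4 and 19.9% in the last. From 0 h to 36 h the log2 fold change was 2.31 (SE 0.085) on stiff and 2.21 (SE 0.085) on soft, and 5.11% of tested genes had a larger absolute change in the mean of the substrates.

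**Figure D1:**
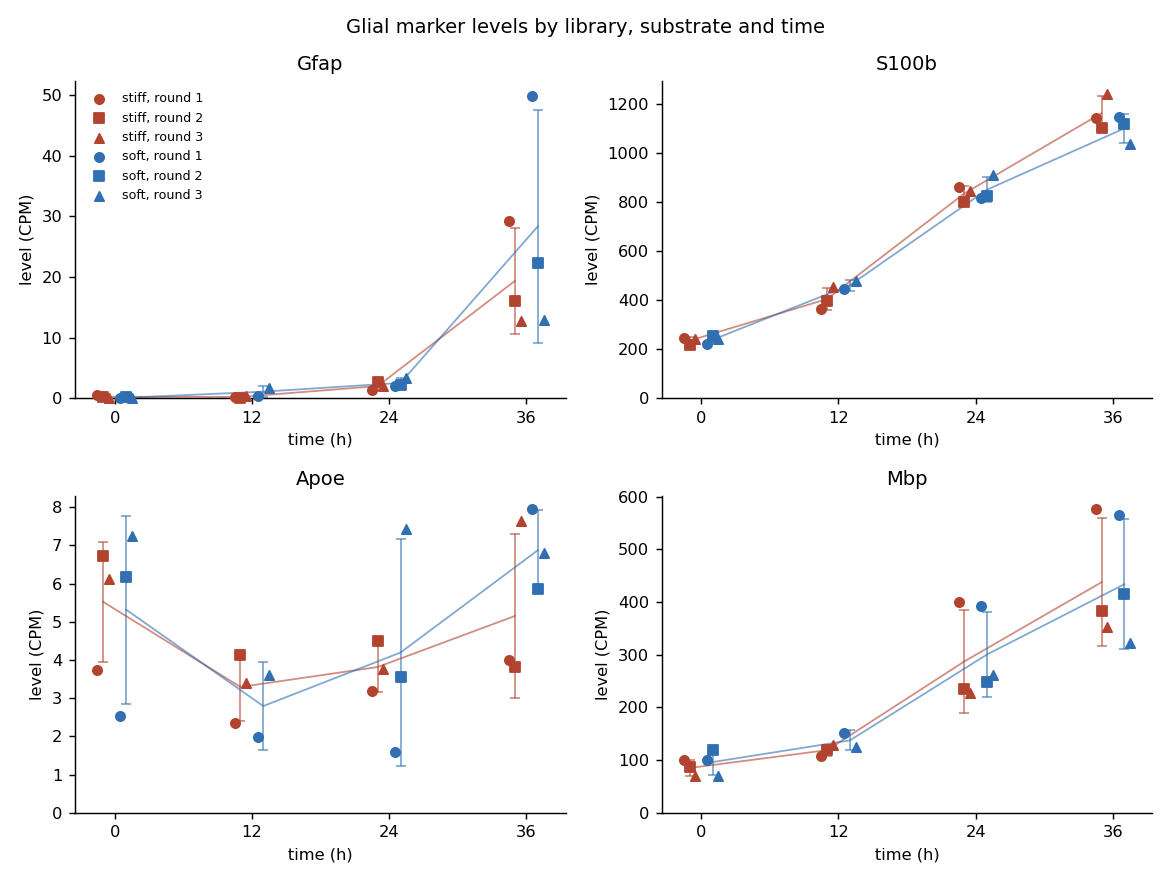
Levels of the 4 tested markers in CPM (linear axes from 0) against time in hours, with stiff in red left of soft in blue; points are libraries, marked by round, and lines join group means with SD bars (n = 3, soft 12 h n = 2). S100b climbs at every time with tight groups, Gfap is near 0 until 24 h and lies between 12.7 and 49.9 CPM at 36 h, Mbp climbs mostly after 12 h, and Apoe stays below 8 CPM.

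Mbp, the myelin gene, climbed mostly after 12 h. In rounds 1 to 3 on stiff, its levels were 99.7, 86.5 and 69.2 CPM in the 0 h libraries, 108, 119 and 129 CPM in those of 12 h, 401, 234 and 226 CPM in those of 24 h, and 577, 383 and 353 CPM in those of 36 h. On soft, its levels were 99.6, 119 and 70.5 CPM in the 0 h libraries, 151 and 124 CPM in those of 12 h (rounds 1 and 3), 393, 248 and 261 CPM in those of 24 h, and 565, 415 and 322 CPM in those of 36 h. The libraries of 12 h lay above those of 0 h and below those of 24 h on both substrates, whereas those of 24 h and 36 h overlapped.

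The step from 12 h to 24 h was 2.3-fold for Mbp (log2 fold change 1.20, SE 0.162, edgeR adjusted p = 2.2e-07), and that from 24 h to 36 h 1.48-fold (0.57, SE 0.144, adjusted p = 0.00397). The first step was smaller, at a log2 fold change of 0.49 (SE 0.164, edgeR adjusted p = 0.0182). Its call held with the round as a block (edgeR adjusted p = 0.000635). That call was lost with DESeq2 (adjusted p = 0.0668) and without soft 12 h replicate 1, soft 0 h replicate 3 or stiff 0 h replicate 3 (adjusted p of 0.0868, 0.0756 and 0.0516). Within 1 substrate the first step of Mbp did not pass the test, with log2 fold changes of 0.47 on stiff and 0.50 on soft (edgeR adjusted p of 0.139 and 0.117). It passed on both with no filter on low counts, with the round as a block and in a fit of the compared groups alone. From 0 h to 36 h it was called on stiff (log2 fold change 2.36, SE 0.218) and on soft (2.16, SE 0.217).

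**Figure D2:**
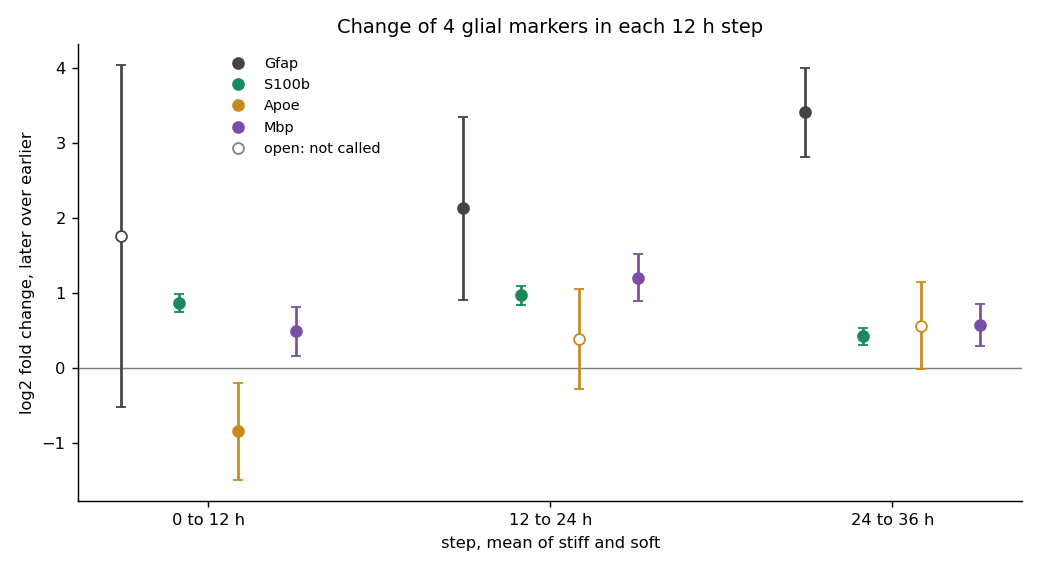
Log2 fold change of each tested marker in each 12 h step, as the mean of stiff and soft, with bars of 1.96 SE; filled points have an adjusted p under 0.05 in edgeR's quasi-likelihood test. The value of Gfap is largest in the last step (3.41) and that of Mbp in the middle one (1.20), while S100b has 0.87, 0.97 and 0.42.

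Apoe, the lipid carrier, was low throughout, with 8 to 43 counts per library and 1.60 to 7.97 CPM. On stiff its group means were 5.52 ± 1.57 CPM for 0 h, 3.3 ± 0.898 CPM for 12 h, 3.82 ± 0.663 CPM for 24 h and 5.15 ± 2.16 CPM for 36 h (SD, n = 3 each). The means on soft were 5.32 ± 2.46 CPM for 0 h, 2.79 ± 1.16 CPM for 12 h (n = 2), 4.20 ± 2.97 CPM for 24 h and 6.87 ± 1.06 CPM for 36 h (SD, n = 3 otherwise). Round 1 held the lowest Apoe level in every group of 0, 12 and 24 h, and the highest on soft at 36 h. Libraries of neighbouring times overlapped on both substrates in every step. Averaged over substrates, Apoe fell by 0.84 on the log2 scale from 0 h to 12 h (SE 0.33, edgeR adjusted p = 0.0422). The call held with the round as a block (edgeR adjusted p = 0.0229), with DESeq2 (adjusted p = 0.0309) and under the other scalings and filters. The call was lost when any 1 of 7 libraries was left out: stiff 0 h replicate 2 or 3, stiff 12 h replicate 1 or 3, soft 0 h replicate 2 or 3, or soft 12 h replicate 1 (adjusted p of 0.0598 to 0.16), and also without round 1 (0.0717). From 24 h to 36 h the log2 fold change was 0.57 (adjusted p = 0.186), a step that was called without soft 24 h replicate 3 (0.87, edgeR adjusted p = 0.035). Between 0 h and 36 h it was 0.11 with a 95% interval of -0.45 to 0.67 (edgeR adjusted p = 0.737).

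Aqp4, the end-foot water channel, was at the floor. It had 4 counts in all, in 3 of 23 libraries: 1 on stiff at 36 h, and on soft 1 at 12 h and 2 in 1 library at 24 h. The other 20 libraries had no count. In a single library a count of 0 allows up to 3 counts, which is 1.24 CPM in the smallest one and less in the others.

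The series sets stiff against soft at each time, and for the glial markers no difference between stiff and soft passed the test at any time. With edgeR's quasi-likelihood test 0 of 4 markers were called at 0 h, 12 h, 24 h and 36 h, and DESeq2 also called 0 at each time. DESeq2 gave Apoe no adjusted p at 36 h, so it did not judge that gene there. At an unadjusted p under 0.05 there was 1 marker at 12 h (S100b) and 0 at the other times. Such p-values were frequent among all genes in the 12 h comparison, with 2284 of the 11857 tested genes. The 36 h comparison had 835 genes under this threshold. Of all tested genes 0% were called at 0 h and 0% at 24 h (431 and 358 genes at an unadjusted p under 0.05, and 0 by DESeq2), 6.6% at 12 h and 0.0675% at 36 h.

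S100b had the narrowest intervals. The log2 fold change of stiff over soft was -0.02 at 0 h (95% interval -0.19 to 0.14), -0.19 at 12 h (-0.37 to -0.01), -0.03 at 24 h (-0.18 to 0.13) and 0.08 at 36 h (-0.08 to 0.24). The 12 h mean of S100b was 404 ± 44.3 CPM over 3 stiff libraries and 461 ± 22.3 CPM over 2 soft libraries (± is the SD), and the libraries overlapped (edgeR adjusted p = 0.248). For Mbp the 36 h difference was 0.01 (-0.39 to 0.41), with 438 ± 121 CPM on stiff and 434 ± 123 CPM on soft (SD, n = 3 each).

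Gfap had the widest interval of the 4 markers at 0, 12 and 24 h, and Apoe at 36 h. At 36 h the Gfap log2 fold change of stiff over soft was -0.55 (95% interval -1.23 to 0.12, edgeR adjusted p = 0.777), with 19.4 ± 8.78 CPM on stiff and 28.4 ± 19.2 CPM on soft (SD, n = 3 each). Without soft 36 h replicate 1 the value was 0.10. At 12 h Gfap stood at 0.214, 0 and 0.339 CPM on stiff and at 0.395 and 1.73 CPM on soft. These are 2 counts in 3 stiff libraries and 13 in 2 soft ones, 11 of the 13 in round 3. The log2 fold change was -2.36 (SE 1.217, edgeR adjusted p = 0.292), and -0.90 without soft 12 h replicate 3. Library totals also differed at 12 h, at 2462360 to 4803755 counts on stiff and 5428086 and 6519349 on soft, and the part of this in the values was not tested.

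**Figure D3:**
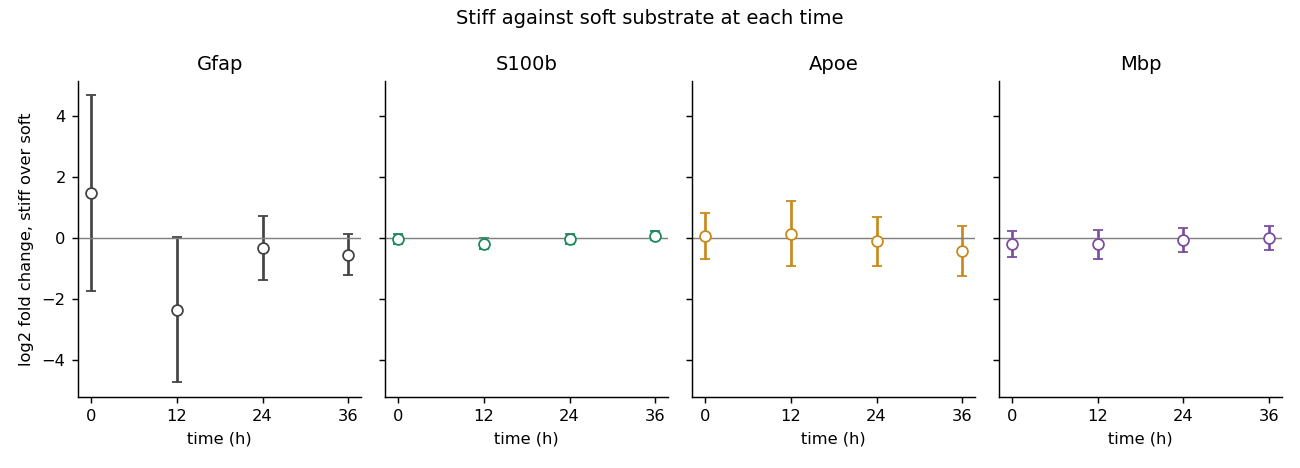
Log2 fold change of stiff over soft for each tested marker at 0, 12, 24 and 36 h, with bars of 1.96 SE; open points mean an adjusted p of 0.05 or more in edgeR's test, which holds for all 16 values. The bars of S100b are narrow around 0 and those of Gfap are wide at 0 h and 12 h, where few counts were present.

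Between 0 h and 12 h Gfap was called on soft and not on stiff, and the difference between the substrates did not pass its own test. On stiff only S100b was called between 0 h and 12 h (log2 fold change 0.79, SE 0.084, edgeR adjusted p = 6.68e-09), where 21.5% of all genes were called. On soft S100b (0.95, SE 0.091, adjusted p = 5.83e-10) and Gfap (3.68, SE 1.30, adjusted p = 0.0312) were called, where 29.1% of all genes were. The Gfap call was lost without soft 0 h replicate 1 or 3 or soft 12 h replicate 3 (edgeR adjusted p of 0.0937, 0.0781 and 0.495), and the log2 fold change was 2.21 without soft 12 h replicate 3, 4.29 without soft 12 h replicate 1 and 5.51 without soft 0 h replicate 2, where the 0 h libraries left are all at 0. On stiff it was -0.16 for Gfap (SE 1.525).

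The difference between the courses was tested directly. For Gfap the stiffness effect at 12 h minus that at 0 h was -3.83 on the log2 scale (SE 2.111, edgeR adjusted p = 0.50), and that at 36 h minus that at 0 h was -2.03 (SE 1.716, adjusted p = 0.906). Single libraries moved both values: the first was -2.37 without soft 12 h replicate 3, and with 1 library left out it lay between -5.66 and that value, while the second lay between -3.86 and -0.86 and was -0.18 without round 1. The lower end of each range is without soft 0 h replicate 2, a fit against 0 counts on soft at 0 h. The upper end of the second is without stiff 0 h replicate 1. For S100b the effects at 12 h and 36 h minus that at 0 h were -0.17 (SE 0.124) and 0.10 (SE 0.116). With edgeR 0 of 4 markers were called in either test, where 1.87% and 0.00843% of all genes were, and 0 by the F test over all 3 later times, where 3.31% were (0 markers at an unadjusted p under 0.05 and 0 by DESeq2 in each). Of all 11857 tested genes, 1376, 697 and 1612 were at an unadjusted p under 0.05 in these 3 tests. DESeq2 called 278, 2 and 566 of all genes. The adjusted p of the F test were 0.717 for Gfap, 0.635 for S100b, 0.942 for Apoe and 0.965 for Mbp.

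Rounds differed for Mbp and Gfap at the late times. Mbp was highest in round 1 on both substrates at 24 h and 36 h, and at 36 h the order of rounds 1, 2 and 3 from high to low was the same on stiff and soft for both Mbp and Gfap. At 24 h Gfap was instead lowest in round 1 on both substrates (stiff 1.37 CPM, soft 1.99 CPM). The highest library was 1.63 times the lowest on stiff and 1.76 times on soft for Mbp at 36 h, and 2.3 and 3.88 times for Gfap. For S100b at 36 h these ratios were 1.13 and 1.11, and a different round was highest on each substrate. Within rounds 1, 2 and 3 the 36 h level on stiff over that on soft was 0.588, 0.716 and 0.992 for Gfap, 1.02, 0.924 and 1.1 for Mbp, and 0.996, 0.985 and 1.20 for S100b. What a round shares was not tested.

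**Figure D4:**
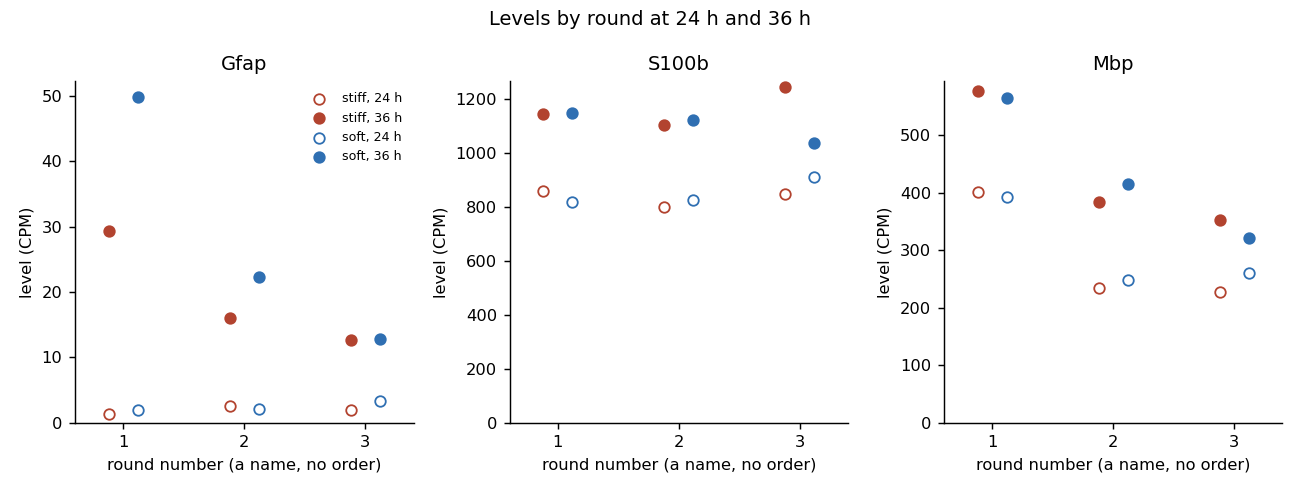
Levels in CPM (linear axes from 0) of Gfap, S100b and Mbp by round, with stiff in red left of soft in blue, and 24 h as open and 36 h as filled points; each point is 1 library. Round 1 is highest for Gfap and Mbp at 36 h on both substrates (29.3 and 49.9 CPM, 577 and 565 CPM), while the S100b rounds lie close together.

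Across the 23 libraries, log2 CPM of S100b and Mbp had a Pearson r of 0.94, Gfap and Mbp 0.90, and Gfap and S100b 0.88, while Apoe had 0.30 with Gfap, 0.10 with S100b and 0.04 with Mbp. These libraries fall into 4 times and 3 rounds, so a common course over time and differences between rounds can both enter the values. No correlation within a time was computed. Such likeness was frequent: 758 tested genes had an r above 0.9 with S100b, 439 with Mbp, 173 with Gfap and 0 with Apoe. The gene most like S100b was ENSRNOG00000009552 (r = 0.994, log2 fold change 2.79 from 0 h to 36 h), and the one most like Mbp was ENSRNOG00000006075 (r = 0.98, log2 fold change 1.30).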

How the data were processed

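Total RNA was made into QuantSeq FWD libraries, which read tags near the 3' end, per the labels' protocols. The submitters' processing notes name HISAT2 2.1.0, HTSeq, FastQC and, as build, rn6. No source used here gives the annotation release, how strand was set or how duplicates were handled, so reads of overlapping genes cannot be told apart. The values deposited by the authors are raw counts of reads, 1 column for each library.

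All 23 libraries entered 1 model with a mean for each of 8 groups, fitted in edgeR 4.0.16 under R 4.3.3 and tested by quasi-likelihood F tests after TMM scaling and filterByExpr (minimum count 10, minimum total 15). This left 11857 genes, over which p-values were adjusted (Benjamini-Hochberg, threshold 0.05). CPM uses TMM-scaled totals. Standard errors come from the F statistic and 95% intervals are 1.96 of them. Alternatives were RLE, upper-quartile and unscaled totals, 2 other filters, DESeq2 1.42.0, each library left out in turn, a fit of just the groups compared, and the round as a block. Leaving out round 1 or the 12 h libraries was added after seeing the data. The code was tested on simulated data. The markers and lists were chosen with earlier results of these data known. The rule for named genes took all 5 markers and the genes most like them, at most 2 unnamed identifiers that rose and 2 that fell. The lists of other astrocyte, oligodendrocyte, stem cell, neuron, microglia and vessel markers were not used here, since identifiers could not be paired with names. Replicate pairs differed by more than sampling noise (chi-square per degree of freedom 2.42 to 9.11).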

Additional observations from a re-analysis of the deposited data

How the results depend on the processing

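The calls of Gfap, S100b and Mbp from 12 h to 24 h, 24 h to 36 h and 0 h to 36 h held under every alternative that was run, as did the 0 calls between stiff and soft (DESeq2 without an adjusted p for Apoe at 36 h). In fits of the compared groups alone, Gfap had no value for stiff against soft at 0 h and 12 h. Those fits therefore did not judge Gfap. From 0 h to 12 h the S100b calls held too, while those of Gfap on soft and of Mbp and Apoe over both substrates were lost under some alternatives. On stiff the number of markers called was 2 in place of 1 with no filter, the replicate block, the compared groups alone (where Gfap had no value) or without round 1. Of all genes, 2511 were called there with no filter and 2892 with the block, against 2551. For the other 2 settings this was not counted. On soft the block called S100b, Gfap and Mbp (edgeR adjusted p of 3.81e-11, 0.0192 and 0.0231), and 3578 of all genes against 3455. With 1 library left out the number of markers called was 1 to 2 on soft and 1 to 3 over both substrates. The main fit did not treat the rounds as pairing the libraries. Same-round deviations of stiff and soft correlated at -0.03 to 0.15, over 0.1 in 4 of 11 pairs. Yet 21 of 23 libraries were closest to their own round, so the intervals of the main fit include any spread between rounds. The block moved the calls over all genes at 36 h to 48 in place of 8, and no filter to 97. DESeq2 gave 47. With no filter there were 12 at 0 h and 8 at 24 h in place of 0, 674 in place of 393 by the F test, and 23 in place of 1 (DESeq2 2) for the stiffness effect at 36 h minus that at 0 h.

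Values that were not called changed sign in places, and the cause was not tested. The Mbp stiffness effect at 12 h minus that at 0 h was -0.0275 in the main fit, 0.0163 with unscaled totals, 0.012 with the replicate block and 0.29 without round 1. Without round 1 Apoe was at -0.10 from 0 h to 36 h on soft, -0.16 over both substrates, and -0.0524 for stiff over soft at 0 h, Gfap at 0.93 from 0 h to 12 h on stiff and -0.14 for stiff over soft at 0 h, and Mbp at -0.0024 for stiff over soft at 36 h. In the same order, the main fit gave 0.36, 0.11 and 0.06 for Apoe, -0.16 and 1.47 (SE 1.638) for Gfap, and 0.01 for Mbp. With 1 library left out, stiff over soft ranged for Apoe over -0.27 to 0.31 at 0 h, -0.20 to 0.67 at 12 h and -0.48 to 0.50 at 24 h, for Gfap over -0.97 to 0.10 at 36 h, for Mbp over -0.38 to 0.18 at 24 h and -0.24 to 0.24 at 36 h, and for S100b over -0.0731 to 0.028 at 0 h and -0.0529 to 0.0238 at 24 h. The same ranges were -0.50 to 0.0496 for Apoe from 0 h to 36 h on stiff, -0.0692 to 0.22 over both substrates, and -0.62 to 1.01 for Gfap from 0 h to 12 h on stiff. For the effect at 12 h minus that at 0 h they were -0.26 to 0.61 for Apoe and -0.21 to 0.17 for Mbp, and for that at 36 h -0.0529 to 0.43 for Mbp. Counts of 0 to 3 per library limit Gfap at 0 h, and fewer than 44 per library limit Apoe.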
